A study of Mus musculus with 9 samples.

Results

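Transcript levels of 48 genes of mitosis and the G2/M transition were followed across 9 poly-A RNA-seq libraries of MCEC, a cell line from mouse heart that its labels call endothelial. The genes were taken as a given list by symbol from a count table of 55487 genes, and each had 1 row there. All 48 passed the filter on low counts, with 888 to 46740 counts in a library. The libraries form 3 groups of 3: unmodified cells (WT), cells with the zinc finger factor Zbtb46 knocked down (KD) and cells in which Zbtb46 was overexpressed (OE). The method of knockdown or overexpression, the number of clones behind each line and any shared vector are not given in the sources used here, and no control-vector library was analysed here. Nothing in the labels says whether the libraries of a group came from separate cultures, so p-values measure the spread between these libraries, which may be technical.

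A cell enters mitosis when cyclin B bound to the kinase CDK1 becomes active. Kinetochore proteins then couple chromosomes to the spindle, and the spindle assembly checkpoint holds back the anaphase-promoting complex until every chromosome is attached. Once the complex is active, it marks securin and cyclin B for destruction, sister chromatids separate, and the central spindle directs cytokinesis. Most genes of this program are transcribed in late S and G2 phase under the MuvB complex with B-Myb and FOXM1, and their promoters often carry CCAAT boxes and a cell cycle homology region. In a mixed population of dividing cells, a larger share of cells in G2/M and more of a transcript in each such cell cannot be told apart by bulk RNA.

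Zbtb46 itself stood at 13.7 ± 0.623 CPM (counts scaled to a common library total; ± gives the SD over 3 libraries throughout) in unmodified cells, 11.2 ± 0.537 after knockdown and 191 ± 2.67 in OE. The log2 fold change was -0.28 in KD (adjusted p = 0.00144) and 3.81 in OE (adjusted p = 3.22e-21). Total counts ran from 39491828 to 55745849, and ribosomal RNA features took 7.44% to 17.31% of the counts in WT, 9.55% to 11.96% in KD and 14.41% to 18.21% in OE. Of 12 endothelial markers, Erg had 0 counts in all 9 libraries, Emcn and Cldn5 had at most 2 counts in any, Pecam1 at most 0.222 CPM and Cdh5 at most 0.141 CPM. Eng was the marker with a clear level, at 119 to 132 CPM in WT, 106 to 112 in KD and 82.1 to 88.1 in OE. Kdr and Tek were detected in all 9 libraries at low levels. Kdr stood at 2.35 to 2.82 CPM in WT, 1.21 to 1.69 in KD and 1.53 to 1.89 in OE. Tek stood at 1.72 to 1.95, 1.31 to 1.51 and 0.378 to 0.597 CPM in the same order. Tie1, Fli1, Vwf and Esam were at 1.08 CPM or lower in every library. The 12 markers summed to 125 to 137 CPM in WT, 110 to 115 in KD and 84.7 to 91.3 in OE. The 6 fibroblast markers summed to 5110 to 5680, 4850 to 4910 and 4040 to 4130 CPM in the same order, nearly all of it from Col1a1, with Lum and Tcf21 at 0 to 2 counts. Dcn stood at 90.7 to 102 CPM in WT, 94.5 to 99.9 in KD and 35.9 to 37.3 in OE. Over all libraries Pdgfra stood at 12.9 to 18.1 CPM and Col1a2 at 0.171 to 0.694. The endothelial label is therefore not borne out by most of its defining markers in these libraries. Both sums moved with the groups, and their part in the results below was not tested.

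Overexpression came with higher levels of most of the 48 genes, by small amounts. Together they made up 0.741% to 0.795% of the counts other than ribosomal RNA in the WT libraries, 0.798% to 0.805% in KD and 0.855% to 0.866% in OE, so the 3 groups did not overlap on this measure. As a share of all counts, ribosomal RNA included, the groups did overlap, at 0.624% to 0.736%, 0.704% to 0.728% and 0.709% to 0.738%. Their CPM after TMM scaling summed to 6502, 6897 and 6413 in WT, to 7128, 7198 and 7123 in KD and to 7319, 7289 and 7497 in OE. On this scale every KD library was above every WT library, and every OE library was above every KD library.

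**Figure D1:**
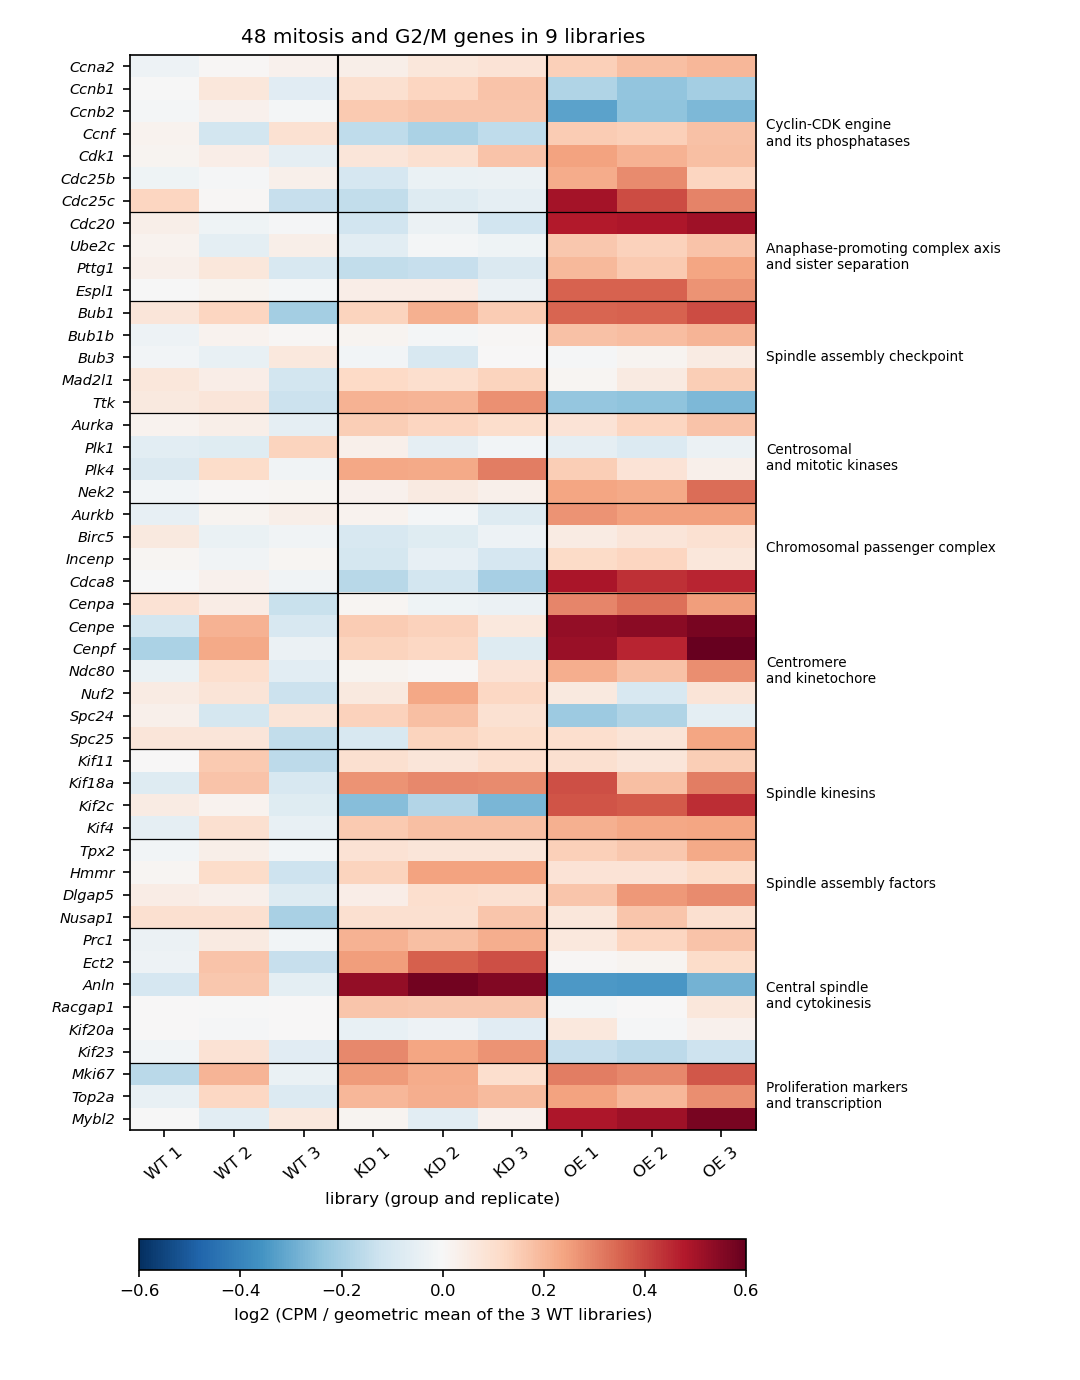
Level of each of the 48 genes (rows, grouped by role) in each of the 9 libraries (columns), as the log2 ratio of its CPM to the geometric mean of the 3 WT libraries. Most rows are red in the 3 OE columns, with Ccnb1, Ccnb2, Ttk, Spc24, Anln and Kif23 blue there, and Anln is the darkest red row in KD.

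A gene was counted as changed at an adjusted p under 0.05 (edgeR quasi-likelihood test, Benjamini-Hochberg over all 16955 genes tested). In OE against WT, 34 of the 48 members changed (70.8%), where the share over all genes tested was 36.4%. Of these, 29 were higher (60.4% of members, 17.0% of all genes) and 5 were lower (10.4% and 19.5%). The members are well expressed, which makes small changes easier to detect: among the 6461 genes whose lowest library held 888 counts or more, 52.9% changed in OE, 25.9% upward and 27.0% downward. The median log2 fold change of the members was 0.17, beside 0.002 over all genes tested. No member reached a 2-fold change in any comparison, beside 5.34% of all genes in OE against WT, 2.64% in KD against WT and 7.49% between OE and KD. The range in OE was -0.34 (Anln) to 0.54 (Cenpe). With library totals alone in place of TMM scaling, 19 members changed, 13 upward and 6 downward, with a median of 0.1. A change of scaling moves all genes of a library alike, and the share and median of all genes on that scale are not given here.

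Fewer members differed between KD and WT. In KD against WT, 17 of 48 changed (35.4%), beside 21.3% of all genes tested and 33.0% of the genes as deeply counted as the members, so the share was near that of well-expressed genes. Upward calls were 14 (29.2%, beside 11.0% of all genes and 21.0% of the deeply counted ones) and downward calls were 3 (6.25%, beside 10.4% and 11.9%). The median was 0.076, beside -0.0022 over all genes, and it was 0.033, beside -0.045, with totals that leave out ribosomal RNA. The count was 11 without KD replicate 3 and 25 without WT replicate 2, which held the highest WT value for 26 of the 48 members. The excess of upward calls was not present under library totals alone, with 3 up and 3 down, and was 11 against 6 with totals free of ribosomal RNA. Shares of all genes called on these scales are not given here.

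Between OE and KD directly, 32 members changed (66.7%, beside 41.5% of all genes and 57.8% of the deeply counted ones), 23 higher (19.4% of all genes) and 9 lower in OE (22.1%). Their median was 0.1, beside 0.011 over all genes. Levels of the groups did not overlap for 28 members in the comparison of KD with WT (34.7% of all genes), with 21 higher (17.6%) and 7 lower (17.0%) in KD. Comparing OE with WT, 35 did not overlap (45.1%), with 30 higher (21.7%) and 5 lower (23.5%). Comparing OE with KD, 38 did not (55.4%), with 27 higher (27.2%) and 11 lower (28.2%). A difference among the 3 groups was called for 40 members (47.7% of all genes). The comparisons against WT share the WT libraries, so their values are set side by side here and not correlated.

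By the direction of their calls against WT, the members fell into 6 sets. The share of all genes in each set is not given here, so the set sizes are not read as a trait of the members. The largest held 21 genes that rose in OE and were not called in KD. Aurka, Kif18a, Kif4, Prc1 and Top2a rose in both. Ccnf, Cdca8 and Kif2c fell in KD and rose in OE, while Ccnb1, Ccnb2, Ttk, Anln and Kif23 rose in KD and fell in OE. Plk4, Hmmr, Ect2 and Racgap1 rose in KD and were not called in OE. The remaining 10 were called in neither comparison: Bub3, Mad2l1, Plk1, Birc5, Nuf2, Spc24, Spc25, Kif11, Nusap1 and Kif20a.

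**Figure D2:**
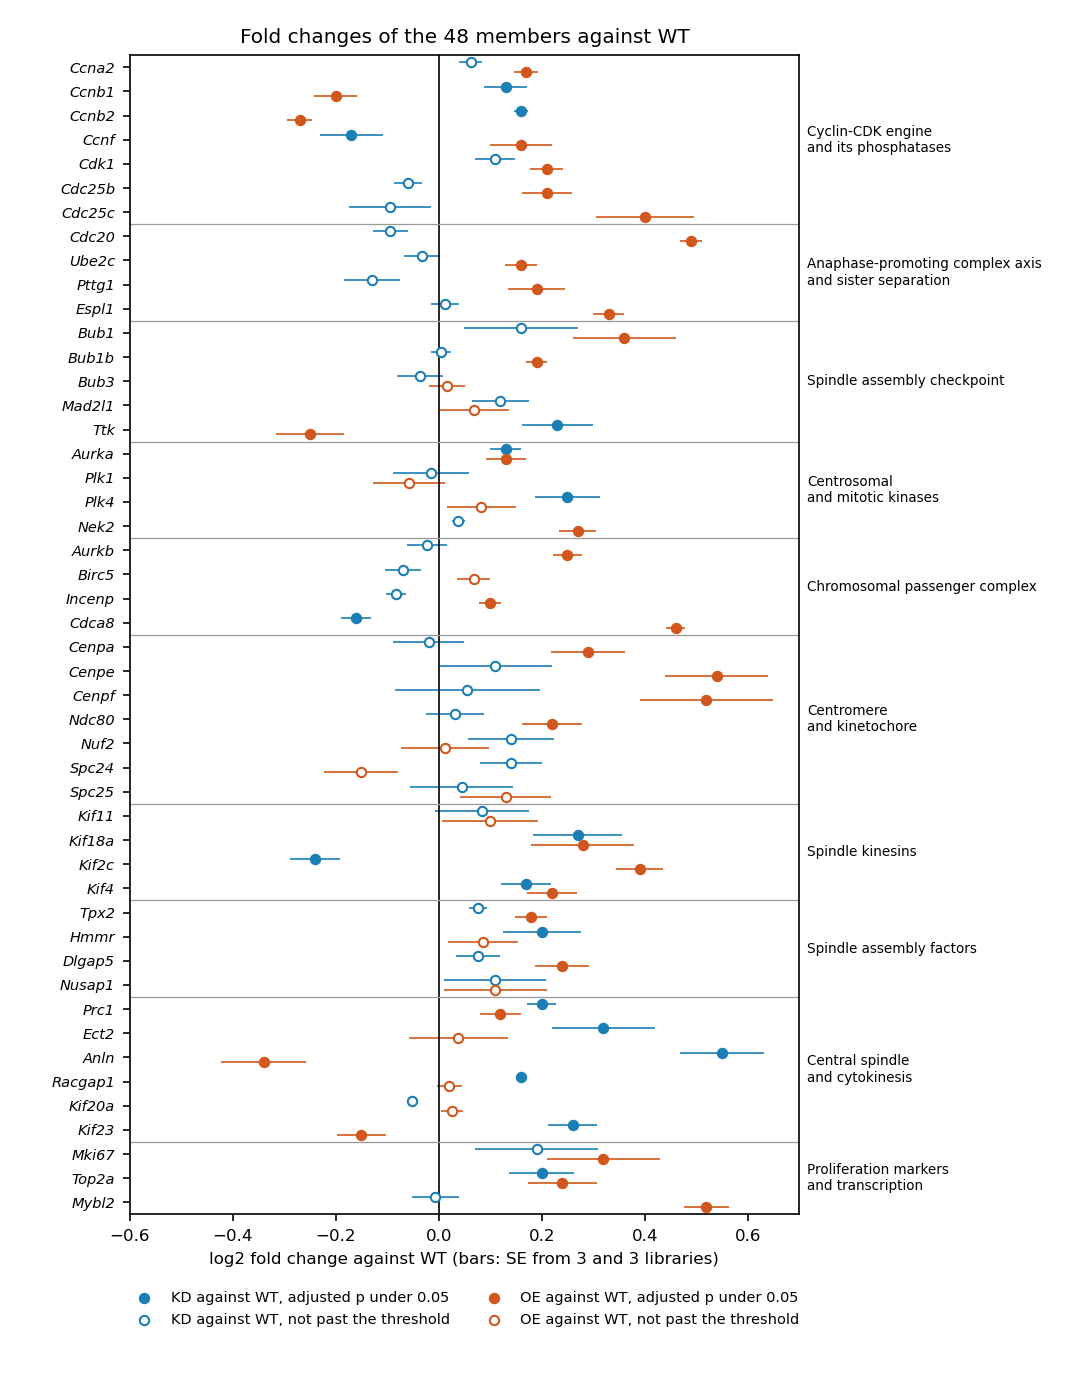
Log2 fold change against WT of each member in KD (blue) and OE (orange), with SE from 3 and 3 libraries as bars, filled where the adjusted p was under 0.05. Filled orange points lie mostly right of 0 (29 of 34), and the widest gap between the colours is at Anln, at 0.55 in KD and -0.34 in OE.

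The promoters of 8 members described below are shown, 6 that hold both a CCAAT box and a cell cycle homology region and 2 that lack the CCAAT box, because these motifs are known to mark genes of this program. A window from 200 bases before to 30 bases after the RefSeq start (GRCm38.p6) was searched on both strands. The CCAAT box reads as ATTGG when it lies on the other strand. The homology region was searched as TTTGAA, in either orientation, so that it also appears below in its reverse complement. A second form of the homology region, TTCGAA, was included and reads alike on both strands. A promoter was matched by symbol for 40 of the 48 members. Printed are Cdca8 (chr4:124936888-124937117, minus strand), Cdc20 (chr4:118437314-118437543, minus strand) and Kif2c (chr4:117178743-117178972, minus strand), all higher in OE. Ccnb2 (chr9:70421525-70421754, minus strand), Kif23 (chr9:61946770-61946999, minus strand), Anln (chr9:22389177-22389406, minus strand) and Ttk (chr9:83834489-83834718, plus strand) were lower in OE, and Ccnf (chr17:24251380-24251609, minus strand) was lower in KD. Capitals mark the 2 motifs, and each sequence reads toward the gene.
Cdca8: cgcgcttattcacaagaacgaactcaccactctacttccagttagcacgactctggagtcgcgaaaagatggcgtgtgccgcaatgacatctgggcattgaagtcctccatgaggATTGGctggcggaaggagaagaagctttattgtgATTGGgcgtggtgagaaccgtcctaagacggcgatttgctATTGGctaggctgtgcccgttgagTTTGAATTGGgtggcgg
Cdc20: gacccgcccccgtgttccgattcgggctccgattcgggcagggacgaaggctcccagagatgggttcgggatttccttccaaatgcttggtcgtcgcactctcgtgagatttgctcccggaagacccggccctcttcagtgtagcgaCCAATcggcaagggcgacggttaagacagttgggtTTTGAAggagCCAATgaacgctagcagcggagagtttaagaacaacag
Kif2c: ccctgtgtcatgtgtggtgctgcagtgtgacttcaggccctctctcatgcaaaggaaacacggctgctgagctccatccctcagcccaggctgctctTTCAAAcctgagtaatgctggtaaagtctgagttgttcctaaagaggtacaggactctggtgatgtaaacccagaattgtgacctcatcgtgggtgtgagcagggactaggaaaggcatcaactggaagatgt
Ccnb2: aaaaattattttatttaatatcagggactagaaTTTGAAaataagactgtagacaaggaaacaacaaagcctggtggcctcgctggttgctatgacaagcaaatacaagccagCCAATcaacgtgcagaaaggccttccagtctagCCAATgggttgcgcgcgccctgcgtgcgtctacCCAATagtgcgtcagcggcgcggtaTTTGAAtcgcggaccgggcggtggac
Kif23: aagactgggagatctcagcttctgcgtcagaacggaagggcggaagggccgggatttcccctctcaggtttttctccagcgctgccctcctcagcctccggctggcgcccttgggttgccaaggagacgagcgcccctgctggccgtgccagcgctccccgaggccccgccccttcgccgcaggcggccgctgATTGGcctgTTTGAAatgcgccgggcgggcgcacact
Anln: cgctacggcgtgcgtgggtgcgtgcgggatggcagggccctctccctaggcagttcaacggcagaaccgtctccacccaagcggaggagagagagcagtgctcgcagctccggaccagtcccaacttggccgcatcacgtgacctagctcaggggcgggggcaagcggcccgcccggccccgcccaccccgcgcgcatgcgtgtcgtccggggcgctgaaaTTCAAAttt
Ttk: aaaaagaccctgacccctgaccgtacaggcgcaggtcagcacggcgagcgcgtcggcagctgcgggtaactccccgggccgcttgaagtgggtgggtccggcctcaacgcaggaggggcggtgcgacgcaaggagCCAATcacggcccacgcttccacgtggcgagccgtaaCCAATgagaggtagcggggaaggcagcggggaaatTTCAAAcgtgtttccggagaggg
Ccnf: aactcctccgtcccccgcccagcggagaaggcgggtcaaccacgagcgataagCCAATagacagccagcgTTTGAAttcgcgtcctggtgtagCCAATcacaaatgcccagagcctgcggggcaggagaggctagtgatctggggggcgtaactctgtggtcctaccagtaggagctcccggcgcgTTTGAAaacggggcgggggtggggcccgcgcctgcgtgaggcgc

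CCAAT occurred in 29 of the 40 member promoters (72.5%), beside 32.3% of the 27025 promoters in the RefSeq table. The homology region occurred in 26 (65.0%, beside 15.0%), and both in 24 (60.0%, beside 4.98%). At least 2 CCAAT boxes stood in 20 (50%, beside 9.4%). Neighbouring boxes 31 to 33 bases apart, counted from the first base of one to the first base of the next, stood in 8 (20%, beside 0.888%). In Ccnb2, CCAAT began 87, 54 and 21 bases before the start, 33 bases apart each time, with TTTGAA 5 bases into the transcript. Cdca8 held 4 CCAAT boxes, of which the last overlapped the homology region by a base. The Anln and Kif2c windows held the homology region and no CCAAT, which says only that these letters are not in this window. The RefSeq start used for Kif2c lies 3867 bases inside the GENCODE gene and that for Cdca8 2394 bases inside. For 6 of the 40 members, the bases after the RefSeq start were not found near the beginning of a GENCODE transcript. One was Kif2c, whose window may therefore not be the promoter used. The others were Aurka, Kif23, Mad2l1, Mybl2 and Plk4, whose RefSeq starts lay ahead of the GENCODE gene, at -25 for Kif23. There a miss can come from bases outside the annotated transcript. The members with both motifs had 15 higher and 3 lower in OE with a median of 0.18, and the 16 without both had 8 higher and 2 lower with a median of 0.12. Genes that rose and genes that fell in OE both carried the pair of motifs, as the printed Cdca8 and Ccnb2 show. A match is a description of letters and was not tested as a binding site.

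The cyclin-CDK engine held both directions. Cyclin B2, a CDK1 partner encoded by Ccnb2 (chr9:70407692-70421547 of GRCm38, GENCODE M21 annotation, as for all gene positions below), stood at 136, 140 and 136 CPM in WT, 153, 154 and 154 in KD and 110, 116 and 114 in OE. The groups did not overlap, with KD highest and OE lowest. The log2 fold change was 0.16 (SE 0.014, adjusted p = 0.00504) in KD and -0.27 (SE 0.025, adjusted p = 1.31e-05) in OE. Ccnb1, which encodes cyclin B1 (chr13:100778650-100786570), followed the same order at 139, 146 and 133 CPM in WT, 149, 152 and 157 in KD and 123, 118 and 121 in OE. Its fold change was 0.13 in KD (SE 0.042, adjusted p = 0.0346) and -0.20 in OE (SE 0.042, adjusted p = 0.000819). The other genes tested in the same 20 Mb window had a median of -0.34 in OE around Ccnb2 and -0.26 around Ccnb1. With that level removed, Ccnb2 in OE was at 0.063 (adjusted p = 0.251) and Ccnb1 at 0.059 (adjusted p = 0.333), so neither fall remained. The KD call for Ccnb1 was lost when WT replicate 1, WT replicate 3, any KD replicate, OE replicate 1 or OE replicate 2 was left out. Pseudogene copies of both cyclins are counted separately in the table, at 1.58% to 2.45% of the Ccnb1 counts and 0.209% to 0.519% of the Ccnb2 counts, and how the counting assigned reads that fit both copies is not given in the sources used here.

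The other 5 genes of this group rose in OE. Ccnf, encoding cyclin F, the substrate receptor of an SCF ubiquitin ligase and not a CDK partner (chr17:24222198-24251484), stood at 77.0, 70.3 and 81.0 CPM in WT, 68.4, 66.7 and 68.3 in KD and 84.3, 84.0 and 85.8 in OE. Here OE was highest and KD lowest, the reverse of the B-type cyclins. Its change was -0.17 in KD (SE 0.061, adjusted p = 0.024) and 0.16 in OE (SE 0.060, adjusted p = 0.02). The KD call was lost without WT replicate 1, WT replicate 3 or any KD replicate, and the OE call without WT replicate 2, OE replicate 1 or OE replicate 3, while 0.32 between OE and KD (adjusted p = 2.57e-05) passed under all 18 settings tried. Cdc25c, a phosphatase that activates CDK1, rose the most of the group, by 0.40 from 24.0 ± 2.16 to 31.6 ± 2.22 CPM. Cdk1, Ccna2 and Cdc25b rose by 0.21, 0.17 and 0.21.

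All 4 genes around the anaphase-promoting complex rose in OE, and none was called in KD. Cdc20, the coactivator that the checkpoint holds in check (chr4:118432901-118437352), stood at 160, 153 and 155 CPM in WT, 144, 152 and 144 in KD and 217, 218 and 222 in OE. The OE libraries lay far above the rest and varied by a few CPM among themselves. The change was 0.49 in OE (SE 0.022, adjusted p = 5.71e-09) and -0.094 in KD (SE 0.034, adjusted p = 0.111). The neighbours of Cdc20 were at 0.36 in OE, and with that level removed Cdc20 stood at 0.13 (adjusted p = 0.0164). Espl1, which encodes separase, the protease that cuts cohesin, rose by 0.33, from 138 ± 1.5 to 174 ± 5.85 CPM. Pttg1, encoding the separase inhibitor securin, rose by 0.19 and was no longer called without WT replicate 3. Ube2c, the ubiquitin-conjugating enzyme of the complex, rose by 0.16.

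In the spindle assembly checkpoint the kinases parted. Ttk, the MPS1 kinase at the top of the pathway (chr9:83834689-83872389), stood at 44.5, 45 and 39.1 CPM in WT, 49.4, 49.2 and 51.7 in KD and 36.4, 36.2 and 35.5 in OE. No value was shared between groups, and the order was KD, WT, OE. The change was 0.23 in KD (SE 0.069, adjusted p = 0.00757) and -0.25 in OE (SE 0.066, adjusted p = 0.00216), and the KD call was lost without KD replicate 3, under library totals alone (0.19, adjusted p = 0.091) and with the level of neighbouring genes removed (0.13, adjusted p = 0.142). Bub1, the kinase that recruits other checkpoint proteins to kinetochores (chr2:127801122-127831865), stood at 69.2, 71.9 and 57.0 CPM in WT, 72, 76.2 and 73.1 in KD and 83.7, 83.9 and 86.3 in OE. It rose by 0.36 in OE (SE 0.10, adjusted p = 0.000257), all OE values lying above all others. Bub1b, the BUBR1 component of the inhibitor of the complex, rose by 0.19 in OE. The other two members, Bub3 and Mad2l1, were at 98.7 ± 3.84 and 88.6 ± 5.69 CPM in WT and passed in neither comparison.

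Among the centrosomal and mitotic kinases, Nek2 and Plk4 changed in different comparisons. Nek2, which parts the centrosomes (chr1:191821444-191833050), stood at 59.6, 60.6 and 60.8 CPM in WT, 61.5, 62.7 and 61.6 in KD and 71.0, 70.7 and 76.2 in OE. It rose in OE by 0.27 (SE 0.036, adjusted p = 0.000124). Plk4, the kinase of centriole duplication (chr3:40800019-40816883), stood at 41.6, 47.7 and 43.6 CPM in WT, 51.9, 51.7 and 54.8 in KD and 49.0, 46.8 and 45.2 in OE. It rose in KD by 0.25 (SE 0.063, adjusted p = 0.00331), and OE overlapped WT. The difference of -0.17 between OE and KD for Plk4 (adjusted p = 0.0243) was lost without KD replicate 3, OE replicate 2 or OE replicate 3. Aurka, the spindle-pole kinase, was 0.13 higher in both groups. Its KD call was lost without WT replicate 3, any KD replicate, OE replicate 1 or OE replicate 2, and its OE call without WT replicate 3, KD replicate 2, or either of OE replicates 2 and 3. Plk1, the kinase with the broadest roles in mitosis, was at 159 ± 13.5 CPM in WT, 157 ± 4.53 in KD and 153 ± 2.65 in OE and was called in no comparison.

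The chromosomal passenger complex, which corrects faulty attachments, is built from Aurora B, survivin, INCENP and borealin. Its borealin gene Cdca8 (chr4:124918465-124939311) stood at 101, 103 and 99.8 CPM in WT, 90.1, 93.9 and 88.2 in KD and 142, 137 and 139 in OE. The OE libraries were clearly above and the KD libraries below those of WT. The change was 0.46 in OE (SE 0.019, adjusted p = 2.29e-08) and -0.16 in KD (SE 0.029, adjusted p = 0.00963), the latter lost without KD replicate 3. Aurkb rose in OE by 0.25, from 98.8 ± 3.12 to 118 ± 1.31 CPM. Incenp rose by 0.10, a call that was lost when any of 6 single libraries was left out: WT replicate 2, KD replicates 1 to 3, or OE replicate 1 or 2. Birc5, encoding survivin, was 0.068 higher in OE and did not pass (adjusted p = 0.226). The neighbouring genes of Cdca8 were themselves at 0.35 in OE. With the median of the 20 Mb window removed, the changes in OE were 0.11 for Cdca8, 0.12 for Incenp, 0.094 for Birc5 and 0.25 for Aurkb, and differences between the subunits were not tested.

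At the centromere and kinetochore, 4 of 7 genes rose in OE and none passed in KD. Cenpe, a kinesin that carries chromosomes to the spindle equator (chr3:135212537-135273611), stood at 135, 168 and 136 CPM in WT, 162, 160 and 152 in KD and 210, 212 and 216 in OE. WT replicate 2 was above the KD libraries, and all OE libraries were above both groups. The rise in OE was 0.54 (SE 0.10, adjusted p = 9.15e-06). Cenpa, the histone H3 variant that defines centromeres (chr5:30666777-30674830), stood at 133, 129 and 114 CPM in WT, 126, 123 and 122 in KD and 153, 157 and 149 in OE, a rise of 0.29 (SE 0.071, adjusted p = 9.76e-05). Cenpf, a kinetochore protein that accumulates in G2, rose by 0.52 (SE 0.13, adjusted p = 0.00195).

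The 4 subunits of the NDC80 complex, the rod that grips microtubules, had 1 call in OE against WT. Ndc80 rose in OE by 0.22 (SE 0.059, adjusted p = 0.00298). Spc24 (chr9:21755442-21760303) stood at 42.8, 38.9 and 44.2 CPM in WT, 46.1, 47.5 and 44.7 in KD and 36.0, 37.0 and 40.2 in OE. OE and WT overlapped for Spc24, and its change of -0.15 in OE did not pass (adjusted p = 0.0568), whereas OE was below KD by -0.29 (SE 0.054, adjusted p = 0.000585). The neighbours of Spc24 were at -0.35 in OE, and with that level removed Spc24 was called higher than WT at 0.20 (adjusted p = 0.016), beside 0.22 for Ndc80. Nuf2 and Spc25 were at 0.012 and 0.13 in OE and passed in no comparison. Differences between the subunits were not tested.

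The spindle kinesins leaned upward. Kif2c, a kinesin that takes microtubules apart at centromeres (chr4:117159639-117182639), stood at 106, 104 and 97.3 CPM in WT, 85.7, 90.6 and 84.7 in KD and 133, 132 and 139 in OE. The 3 groups were separate, in the order OE, WT, KD. Its change was 0.39 in OE (SE 0.045, adjusted p = 1.02e-06) and -0.24 in KD (SE 0.049, adjusted p = 0.000768), and OE was 54.5% above KD. The neighbours of Kif2c were at 0.36 in OE and -0.14 in KD. With that level removed, its changes were 0.032 (adjusted p = 0.657) and -0.10 (adjusted p = 0.157). Kif18a, which limits microtubule length, was higher in both groups, by 0.27 in KD and 0.28 in OE, and the KD call was lost without WT replicate 1. Kif4, a motor on chromosome arms, was 0.17 higher in KD and 0.22 higher in OE, and the KD call was lost without WT replicate 1, WT replicate 3 or any KD replicate. Kif11, the motor that pushes spindle poles apart, ranged from 201 to 250 CPM in WT, which spans its KD and OE values, and did not pass.

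Of the spindle assembly factors, Hmmr, a spindle-pole protein (chr11:40701395-40733422), stood at 157, 168 and 143 CPM in WT, 171, 184 and 184 in KD and 165, 165 and 168 in OE. It rose in KD by 0.20 (SE 0.076, adjusted p = 0.00628), and OE overlapped WT. Dlgap5, which stabilises kinetochore fibres (chr14:47387779-47418407), stood at 67.5, 66.9 and 62.1 CPM in WT, 67.2, 70.3 and 69.7 in KD and 73.5, 78.5 and 79.7 in OE. For Dlgap5 it was OE that lay apart, with a rise of 0.24 (SE 0.052, adjusted p = 0.000732). Tpx2, the activator of Aurora A on the spindle, rose in OE by 0.18, and Nusap1 was 0.11 higher in each group without passing.

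Of the 6 genes of the central spindle and cytokinesis, 5 rose in KD, and in OE 1 rose and 2 fell. Anln, encoding anillin, the scaffold of the contractile ring (chr9:22332012-22389188), stood at 325, 389 and 334 CPM in WT, 502, 520 and 512 in KD and 274, 273 and 286 in OE. No other member changed as much in KD, and the 3 groups were far apart. The change was 0.55 in KD (SE 0.082, adjusted p = 5.14e-07) and -0.34 in OE (SE 0.083, adjusted p = 5.64e-05), so that OE was 45.8% below KD (adjusted p = 1.03e-10). Kif23, the motor subunit of centralspindlin (chr9:61915905-61946774), stood at 110, 118 and 106 CPM in WT, 136, 131 and 134 in KD and 101, 99.6 and 102 in OE. It rose in KD by 0.26 (SE 0.048, adjusted p = 0.000247) and fell by 0.15 on the log2 scale in OE (SE 0.047, adjusted p = 0.0128), a call lost without OE replicate 2.

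Partners of these proteins rose in KD as well. Racgap1, the other subunit of centralspindlin, went from 311 ± 0.412 CPM in WT to 348 ± 0.940 in KD, a change of 0.16, and was 315 ± 9.52 in OE. Ect2, the exchange factor that centralspindlin brings to the cell middle to activate RhoA, rose by 0.32, from 153 ± 16.9 to 192 ± 9.85 CPM, and was 157 ± 5.90 in OE. Prc1, which bundles the microtubules of the central spindle, rose by 0.20 in KD and by 0.12 in OE, the latter lost without replicates 1 or 3 of WT, 1 or 2 of KD, or 2 or 3 of OE. Kif20a was at 120 ± 0.641 CPM in WT and did not pass in either comparison. Over the 6 genes the median was 0.23 in KD and 0.023 in OE, beside 0.076 and 0.17 for all 48 members. These medians describe a group of 6 and were not tested against the other members. Under library totals alone the KD calls of Prc1 (0.16, adjusted p = 0.107) and Racgap1 (0.13, adjusted p = 0.167) were lost. With window medians removed, the fall of Anln in OE went to 0.015 and that of Kif23 turned to 0.19.

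Of the proliferation markers and transcription factors, Mybl2, encoding B-Myb, the factor that switches the MuvB complex to activation (chr2:163054687-163084688), stood at 66.0, 63.2 and 69.0 CPM in WT, 66.7, 63.2 and 67.2 in KD and 92.3, 94.0 and 98.1 in OE. KD and WT overlapped, and all OE values lay well above. The change was 0.52 in OE (SE 0.044, adjusted p = 3.07e-08) and -0.0067 in KD. Top2a, the topoisomerase that untangles sister chromatids (chr11:98992943-99024189), stood at 700, 785 and 682 CPM in WT, 829, 838 and 823 in KD and 851, 827 and 874 in OE. KD and OE overlapped each other above WT, with changes of 0.20 (SE 0.063, adjusted p = 0.00324) and 0.24 (SE 0.067, adjusted p = 0.000347). Both calls were lost under library totals alone, at 0.16 (adjusted p = 0.114) and 0.17 (adjusted p = 0.0542). Mki67, encoding the Ki-67 antigen, ranged from 356 to 459 CPM in WT and rose in OE by 0.32 (SE 0.11, adjusted p = 0.00866), a call lost without WT replicate 3.

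**Figure D3:**
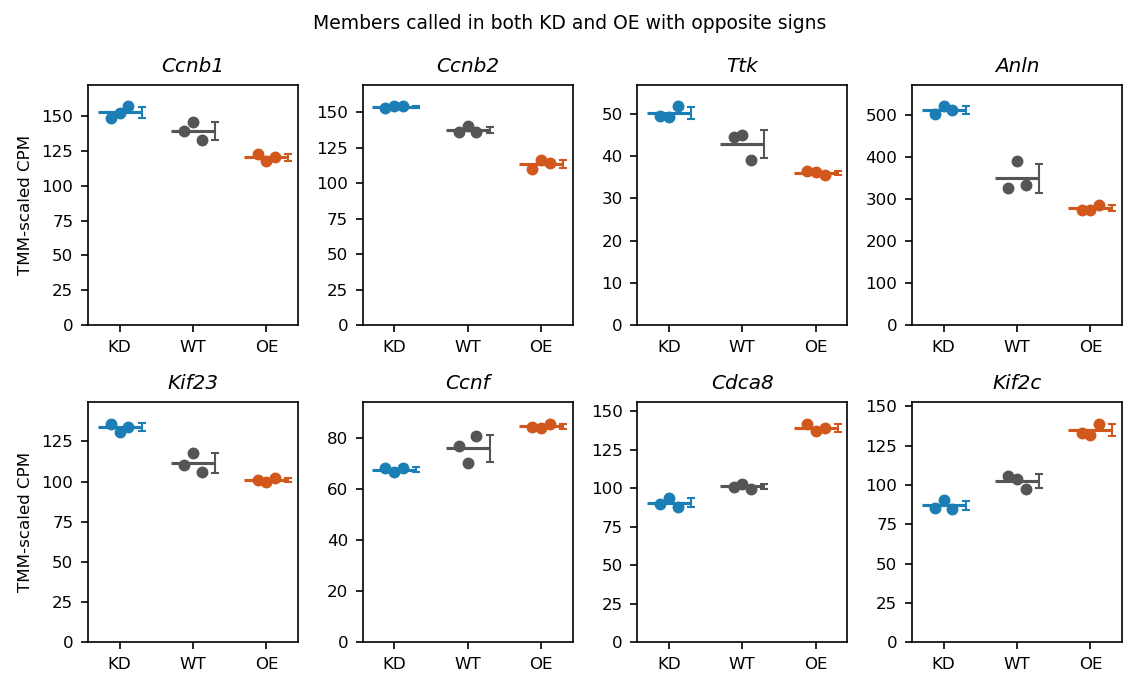
TMM-scaled CPM of the 8 members called in both comparisons against WT with opposite signs: points are libraries, lines the mean of 3 and bars the SD, with each axis starting at 0. Ccnb1, Ccnb2, Ttk, Anln and Kif23 step down from KD to OE, and Ccnf, Cdca8 and Kif2c step up.

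Per kilobase of exon, Ccnb2 (89.7 ± 1.53 RPKM, reads scaled to exon length and library size), Cdc20 (83.7 ± 1.99), Top2a (80.2 ± 6.13), Ube2c (72.8 ± 2.53) and Plk1 (72.3 ± 6.12) had the highest levels in WT. Top2a was within its SD of Cdc20, and Ube2c and Plk1 differed by less than theirs. At the other end were Cdc25c at 4.88 ± 0.439 and Kif18a at 2.52 ± 0.267 RPKM. The median member stood at 21 RPKM. The spread over WT libraries was wider than in the other groups, with a median coefficient of variation over members of 5.72% in WT, 2.52% in KD and 2.77% in OE. Exons of 15 members overlap another gene. These include Cdc20 with Elovl1, Ccna2 with Exosc9, Nusap1 with Oip5, Kif20a with Cdc23 and Kif4 with Pdzd11, all on opposite strands. Whether counting used strand is not given in the sources used here, so such levels may hold reads of the partner.

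Of the 8 members with opposite signs in KD and OE, 6 lay in stretches of the genome whose other genes shifted in the same direction. The median log2 fold change of the other tested genes in the same 20 Mb window was taken as the local level. In OE it was 0.36 around Cdc20 and Kif2c (chromosome 4, 100 to 120 Mb) and 0.35 around Cdca8 (120 to 140 Mb of the same chromosome). It was -0.35 around Anln and Spc24 (chromosome 9, 20 to 40 Mb), -0.34 around Ccnb2 and Kif23 (60 to 80 Mb) and -0.26 around Ccnb1 (chromosome 13, 100 to 120 Mb). In KD the local levels had the other sign: -0.14 around Cdc20 and Kif2c, -0.18 around Cdca8, 0.11 around Anln and Spc24, 0.10 around Ccnb2 and Kif23 and 0.17 around Ccnb1.

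For the 8 opposite-sign members and for Cdc20, which was not called in KD, the own change and the local level were close in several cases. In OE, Anln changed by -0.34 beside -0.35, Kif2c by 0.39 beside 0.36 and Ccnb1 by -0.20 beside -0.26. With the local level removed in the fit, Anln in OE was at 0.015 (adjusted p = 0.869), Kif2c at 0.032 (adjusted p = 0.657), Ccnb1 at 0.059 (adjusted p = 0.333) and Ccnb2 at 0.063 (adjusted p = 0.251). Cdc20 kept 0.13 (adjusted p = 0.0164) and Cdca8 0.11 (adjusted p = 0.0434), and Kif23 turned from -0.15 to 0.19 (adjusted p = 0.00266). In KD, Cdca8 went to 0.022 (adjusted p = 0.798) and Ccnb1 to -0.033 (adjusted p = 0.676), and Ccnb2 and Kif2c no longer passed, at 0.062 (adjusted p = 0.326) and -0.10 (adjusted p = 0.157). Ttk and Ccnf in KD did not pass either, at 0.13 (adjusted p = 0.142) and -0.12 (adjusted p = 0.131). The rise of Anln in KD was 0.44 (adjusted p = 8.11e-06) and that of Kif23 0.16 (adjusted p = 0.0171). What shifted these stretches was not tested, and neither was its part in the members' changes.

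**Figure D4:**
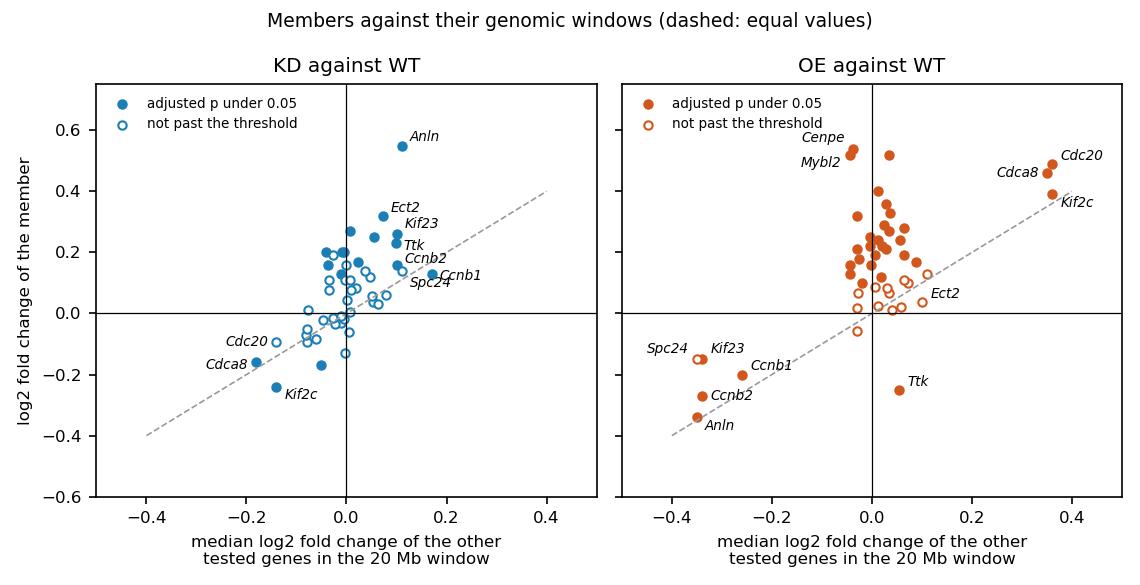
Log2 fold change of each member (vertical axis) against the median of the other tested genes in its 20 Mb window (horizontal axis), in KD and in OE against WT, filled where the adjusted p was under 0.05. In OE, Cdc20, Cdca8 and Kif2c sit with high windows (0.35 to 0.36) and 5 members with low ones (-0.35 to -0.26), while Ttk at -0.25 lies in a window at 0.054.

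The 40 members in windows within 0.2 of 0 in OE had 26 higher calls, 1 lower call and a median of 0.18. Of all 15041 genes tested in such windows, 16.2% were called higher and 17.5% lower, and of the 5763 counted as deeply as the members, 24.7% and 24.1%. The lower one was Ttk, whose window was at 0.054 and which stood at -0.30 (adjusted p = 0.000422) with the local level removed. Mybl2 and Cenpe, with rises of 0.52 and 0.54, lay in windows at -0.044 and -0.038 and stood at 0.57 and 0.58 after removal. In KD these 40 members had 10 higher calls and 1 lower, beside 10.4% and 9.80% of all genes in such windows and 20.1% and 10.8% of the deeply counted ones, so the upward share was near that of well-expressed genes. With window medians removed for all genes, OE against WT had 28 higher and 1 lower of 48, beside 15.1% and 18.0% of all genes. KD against WT had 11 higher and 0 lower (9.92% and 8.97% of all genes), and OE against KD 20 higher and 4 lower (17.4% and 20.8%). Of the 8 members with opposite signs, Ttk in OE and Anln and Kif23 in KD kept the sign and the call in their stated comparison, along with Cdca8 and Ccnf in OE.

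Lists of related genes outside the 48 were counted in the same fit, and no difference between them and the members was tested. Of all genes tested, 17.0% rose and 19.5% fell in OE, and 11.0% and 10.4% in KD. Of the genes counted as deeply as the members, the shares were 25.9% and 27.0% in OE and 21.0% and 11.9% in KD. Among 16 regulators of the program, 7 rose and 1 fell in OE (median 0.091) and 2 rose and 2 fell in KD (median 0.025). The list held FOXM1, the MuvB complex with its pocket protein and E2F partners, Mybl1, and the NF-Y subunits Nfya, Nfyb and Nfyc. The fall in OE was that of Nfya, at -0.27, while Nfyb and Nfyc were among the rises. Nfyc was at 0.25 in OE, in a window at 0.35. Foxm1 was at 258 ± 3.30 CPM in WT, 265 ± 2.84 in KD and 264 ± 5.59 in OE and passed in no comparison. Rbbp4, a MuvB subunit, had the smallest p of this list, with 0.44 in OE and -0.30 in KD, and its own window was at 0.35 and -0.18. Of 26 other spindle and cytokinesis genes, 16 rose and 2 fell in OE (median 0.17), with Sapcd2, a cortical factor of spindle orientation, at 0.64. Of 17 condensin and cohesin genes, 10 rose and 2 fell (median 0.17), with the cohesin regulator Pds5a at 0.31.

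Other lists were divided, and several of their counts were near the shares given above for all or for deeply counted genes. Of 32 further kinetochore and checkpoint genes, 9 rose and 7 fell in OE, and 9 rose and 2 fell in KD (median 0.13). Cenpm, a centromere protein of this list, was at 30.9 ± 2.82 CPM in WT, 20.5 ± 1.08 in KD and 46.1 ± 2.26 in OE, a 2.25-fold difference between OE and KD, with its windows at -0.034 in KD and 0.054 in OE. Of 16 subunits and regulators of the anaphase-promoting complex, 3 rose and 4 fell in OE, with Cdc26, a small subunit, at 0.47. Of 14 other G2/M kinases and phosphatases, 2 rose and 3 fell in OE, with Arpp19, an inhibitor of the phosphatase PP2A, at -0.34 in a window at -0.34. Of 39 genes of DNA replication and the G1/S transition, 10 rose and 7 fell in OE (median 0.049) and 5 rose and 8 fell in KD (median -0.008). Within that list the licensing factor Cdt1 fell by 0.48 on the log2 scale in OE, in a window at -0.44. In KD against WT, Kif15 (0.43), Ncapd3 (0.23), Cdc27 (0.30), Mastl (0.21) and Rrm1 (0.24) had the smallest p of their lists, all called higher. Rbbp4 and Cenpm had it in theirs and were called lower. Kif15, a spindle gene, and Ncapd3, a condensin gene, were below KD in OE, at -0.7 and -0.41. Their windows were at -0.66 and -0.46.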

How the data were processed

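Poly-A RNA of MCEC was sequenced from both ends in 9 libraries, 3 per group, per the labels' protocols. The deposited table gives raw counts for each Ensembl gene, which are whole numbers with a different total in each library. The submitters' processing notes name the build GRCm38, also called mm10. The aligner, the counting program, the annotation release and the use of strand are not given in the sources used here. Genes listed on several rows (168 genes on 455 of 55774 rows) were counted once, all rows named a gene, and 0 columns were left over.

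Counts were fitted with edgeR 4.0.16 in R 4.3.3 (limma 3.58.1, DESeq2 1.42.0 as an alternative; Python 3.11.15, pandas 2.3.3, numpy 2.4.6, matplotlib 3.10.9). Genes were kept with filterByExpr by group (16955 genes), scaled with TMM and tested in 1 robust quasi-likelihood fit over the 9 libraries with group as the only term. Adjustment was by Benjamini-Hochberg over all genes tested, and 0.05 was the threshold. With 3 libraries in each group, an exact permutation test of a single gene can give no p below 0.1. Standard errors came from the SDs of log2 CPM with a prior count of 2. RPKM used the union of GENCODE exons. The procedure was tested on simulated data. Total counts were 39491828 to 55745849 per library, and the members' counts per library ran from 888 to 46740. Counting error alone gives a coefficient of variation of 3.36% at the lowest and 0.463% at the highest of these, so for members with few counts it is as large as the spread of replicates in KD and OE.

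The 48 members were given as a list. The members, the roles, the related lists and the markers were chosen with earlier results of these data known. Members described with every library were, in each role, those with the smallest p in each comparison, plus those called in both groups against WT with opposite signs. In related lists the gene with the smallest p in each comparison was named, and Foxm1 was named after its values were seen. Promoters printed were those of described members with both motifs, at most 6, and at most 2 without. Same-numbered replicates did not deviate together (correlations -0.042 to 0.049 between deviations from the group means). For replicate pairs, the median squared difference of a gene was 2.98 to 11.4 times that of sampling noise, and no pair was counted as 1 library. These ratios used totals without TMM scaling. They therefore also hold differences in library composition, such as ribosomal RNA, and do not show separate cultures. Alternatives were DESeq2 size factors, library totals, other filters, DESeq2, fits of 2 groups, a replicate block, removal of 20 Mb window medians and each library left out. Totals without ribosomal RNA were added after seeing the data.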

Additional observations from a re-analysis of the deposited data

How the results depend on the processing

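Counts of changed members depended on the scaling and on the level of neighbouring genes. With library totals alone, 6 members were called in KD against WT (3 higher, 3 lower, beside 14 and 3 with TMM), 19 in OE against WT (13 and 6, beside 29 and 5), 24 in OE against KD (16 and 8, beside 23 and 9) and 22 for any difference (40 with TMM). The medians were then 0.1 for OE over WT and 0.075 for OE over KD. The calls lost in KD were those of Ccnb1, Ccnb2, Ttk, Aurka, Plk4, Kif18a, Kif4, Hmmr, Prc1, Racgap1 and Top2a (11 of 17). Those lost in OE were Ccna2, Ccnf, Cdk1, Cdc25b, Ube2c, Pttg1, Bub1b, Aurka, Incenp, Ndc80, Kif18a, Kif4, Tpx2, Prc1, Mki67 and Top2a (16 of 34). Totals without ribosomal RNA, an alternative chosen after seeing the data, gave medians of 0.033 for KD over WT and 0.16 for OE over KD, and 11 higher and 6 lower calls in KD. The cause of these shifts was not tested. Shares of all genes called under these scalings are not given here, so the lost calls are not read as particular to the members. With window medians removed, 11 members were called in KD against WT (11 and 0), 29 in OE against WT (28 and 1) and 24 in OE against KD (20 and 4, beside 23 and 9), and 10 called values changed sign. These were -0.033 for Ccnb1 and 0.022 for Cdca8 in KD. In OE against WT they were 0.059 for Ccnb1, 0.063 for Ccnb2, 0.015 for Anln and 0.19 for Kif23. In OE against KD they were 0.092 for Ccnb1, 0.0011 for Ccnb2, 0.17 for Spc24 and 0.032 for Kif23. Each follows from subtracting the local median given in the report.

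Leaving out 1 library at a time gave 11 to 25 members called in KD against WT, 30 to 36 in OE against WT, 27 to 34 in OE against KD and 37 to 42 for any difference. The medians ran from 0.051 to 0.093, from 0.15 to 0.17 and from 0.08 to 0.11. The lowest KD count came without KD replicate 3 and the highest without WT replicate 2. With the replicate number as a block, the counts were 15, 33, 31 and 40. Ccnb1 and Aurka in KD and Incenp in OE were then not called (adjusted p = 0.0515, 0.0604 and 0.0589). The numbers do not pair the samples, so this is no sign of a weaker effect. Under all 18 alternatives, calls held for Ect2, Anln and Kif23 in KD (3 of 17), for 13 of 34 members in OE and for 17 of 32 between OE and KD. The share of all called genes that held under them is not given here.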
